A study of Cricetulus griseus with 24 samples.

Results

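The genes described here are those whose response to apoptotic cells differed between phagocytes that could take the corpses up and phagocytes in which uptake was blocked with cytochalasin D. They were found in 16 of the 24 libraries of the series, in 4 groups of 4, which the design text calls biological replicates. The phagocytes were LR73 cells, a hamster (Cricetulus griseus) line described in the labels as cultured fibroblasts and grown in alpha-MEM with 10% FBS. The cells were left alone (control), given cytochalasin D, co-cultured with apoptotic Jurkat cells, or given both agents. Jurkat is a human line of T cell origin. Its cells had been exposed to 1500 mJ of ultraviolet C light and cultured for 4 h before they met the phagocytes. Neither the time of co-culture in this experiment nor the dose of cytochalasin D is stated in the labels. All 16 libraries come from 1 phagocyte line and 1 kind of corpse, and their titles carry the same date-like tag.

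Phagocytes recognise dying cells through exposed phosphatidylserine, rearrange actin to draw them in, and digest them in phagosomes that fuse with lysosomes. The digested corpse delivers sterols, nucleotides, amino acids and other cargo to the cell. Cytochalasin D caps growing actin filaments and so stops engulfment, while corpses can still touch the cell and release soluble factors. The drug also dismantles the cytoskeleton of the cell itself, which by background knowledge changes the output of actin-sensed transcription factors such as MRTF and YAP. Loss of uptake and loss of the actin skeleton therefore cannot be told apart in this design.

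For each gene the corpse effect without inhibitor (apoptotic cells minus control) was set against the corpse effect under cytochalasin D (both agents minus cytochalasin D alone). Both are log2 differences, and they share no library. The difference between the effects is given as blocked minus unblocked, so a positive value means that the corpse effect was higher when uptake was blocked. Levels are CPM, counts normalised to library depth and scaled by TMM factors, given for libraries 1 to 4 of a group in order, and they do not correct for gene length. All adjusted p values come from edgeR's quasi-likelihood test with Benjamini-Hochberg adjustment over 13106 genes, and a gene was called at an adjusted p under 0.05. A gene was classed as uptake only when the difference and the effect without inhibitor were called and the effect under cytochalasin D was not. It was classed as blocked only in the reverse case, as opposite when both effects were called with different signs, and as same direction when both were called with one sign. "Only" thus describes the calls. A missed call does not show that a gene did not respond.

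Libraries held 8275769 to 18917152 counts. Of the fibroblast markers, Vim, Fn1 and Sparc were high, whereas Col1a1, Col1a2 and Thy1 were near 0 in every group. Human RNA carried by corpses could enter these counts. The summed T cell markers took 44.7 ± 1.23 ppm of counts with apoptotic cells (SD, n = 4) and 43.6 ± 2.00 with both agents (two-sided exact permutation p = 0.457, BH-adjusted p = 0.499 over 12 such tests). In control libraries the sum was 36.7 ± 1.34 and under cytochalasin D alone 33.3 ± 3.03. Most of it was Tcf7 and Lat, at 23.7 and 11.0 CPM in control libraries, so the test of the sum says little about corpse RNA. With corpses the mean sum was higher by 7.93 ppm without inhibitor and by 10.3 ppm under cytochalasin D. Whether these excesses differ was not tested. None of the 6 T cell markers tested was called for the difference by edgeR, DESeq2 or limma-voom, and 1 had an unadjusted p under 0.05. Their defining members Lck and Zap70 had means of 3.20 and 3.35 CPM with apoptotic cells and 3.07 and 2.96 CPM with both agents, and Cd3g and Cd2 were at 0 in all groups. Others had higher means with both agents: Lef1 at 1.68 and 2.47 CPM, Cd28 at 1.06 and 1.96 CPM, and Cd3e, Cd3d and Ptprc all under 0.5 CPM. The median difference over the 6 tested was 0.61 on the log2 scale. Genes under 0.5 CPM in both corpse-free groups took 138 ± 5.12 ppm with apoptotic cells and 154 ± 14.4 ppm with both agents (SD, n = 4, two-sided exact permutation p = 0.114, BH-adjusted p = 0.196). Their part in the results was not tested. None of the 598 genes called for the difference was under 0.5 CPM in both corpse-free groups, although 117 such genes were tested, so no gene described below was seen only where corpses were present. A change in the RNA per cell and a change in the mix of cells cannot be told apart in these bulk libraries.

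The corpse effect differed between uptake and block for 598 of 13106 genes (4.56%). It was higher when blocked for 397 genes (3.03%) and lower for 201 (1.53%). By class, 307 genes changed with uptake only (2.34% of those tested, 111 rose and 196 fell) and 154 with block only (1.18%, 99 rose and 55 fell). A further 39 changed in opposite directions (0.298%) and 16 in the same direction to an unequal extent (0.122%). For 82 genes (0.626%) neither effect was called by itself. Over all genes tested, 13.7% were called for the corpse effect without inhibitor and 8.61% for that under cytochalasin D. Cytochalasin D itself changed 26.3% without corpses and 32.5% with them. Of the 39 genes with opposite changes, 33 fell with corpses when uptake was possible and rose when it was blocked. Differences were mostly small, with a median size of 0.41 on the log2 scale, and 36 genes differed at least 2-fold. In the arm that was not called, the 95% interval of the change lay within 1.5-fold either way for 287 of the 307 uptake-only genes and for 150 of the 154 blocked-only genes. The median change in the called arm was itself under 1.5-fold in both classes, so this bound does not show that the other arm was quiet. In that other arm the unadjusted edgeR p was at least 0.05 for 239 of the 307 and 116 of the 154. The change there had the opposite sign for 258 and 130.

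**Figure D1:**
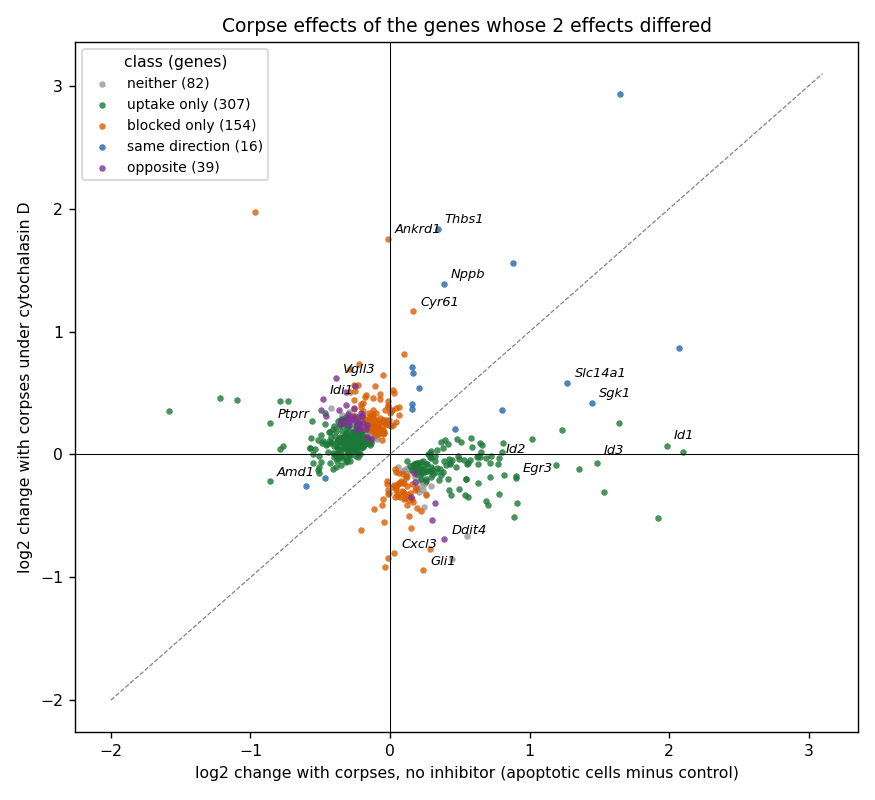
Each point is 1 of the 598 genes whose corpse effects differed, placed by its log2 change with corpses without inhibitor (x axis) and under cytochalasin D (y axis), and coloured by class. The dashed line marks equal effects. Uptake-only genes such as Id1 lie along the x axis, blocked-only genes such as Ankrd1 along the y axis, and the 39 opposite genes in the upper left and lower right.

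These counts depend on single libraries. The number of called differences fell to 288 without control 1, 274 without cytochalasin D 1, 293 without cytochalasin D 2 and 351 without cytochalasin D 3. It was 251 without apoptotic cells 3, 366 without apoptotic cells 4, 275 without library 3 and 266 without library 4 of the group with both agents. Without cytochalasin D 4 it rose to 1645. In the same leave-outs the uptake-only class ranged from 114 to 688 genes, the blocked-only class from 66 to 533, and the opposite class from 21 to 95. Control 4, cytochalasin D 1 and library 4 of both agents stood apart on the third principal component (10.4% of variance). With those 3 left out, 120 genes were called, 118 of them among the 598. Of the 598 genes, 228 were called in all 16 leave-outs, and the same class was found in all 16 for 90 uptake-only, 44 blocked-only, 12 opposite and 6 same-direction genes. Unless stated, the genes named below were called in all 16 and kept their class there.

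**Figure D2:**
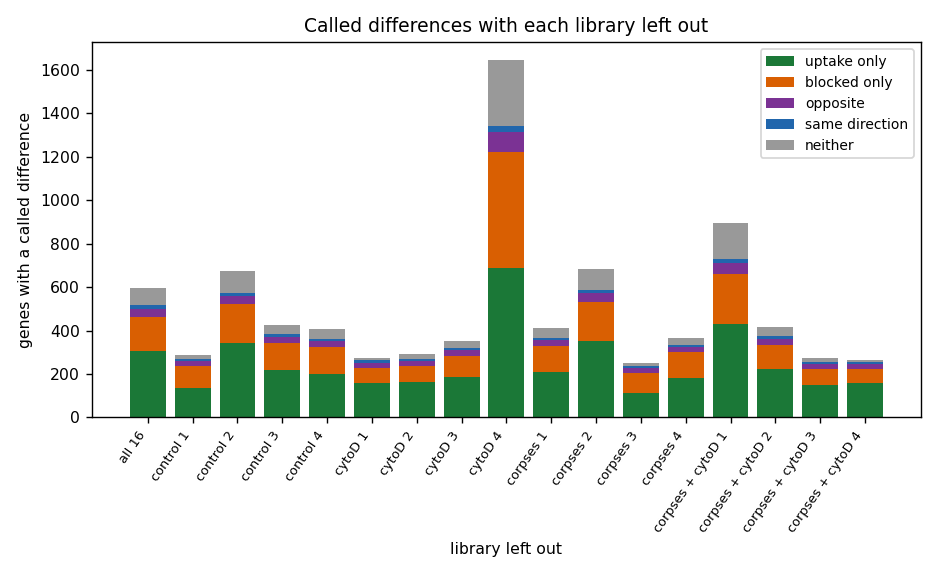
Bars show how many genes had a called difference with all 16 libraries and with each library left out, coloured by class. The total was 598 with all libraries, 251 without apoptotic cells 3 and 1645 without cytochalasin D 4.

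Among the named genes, the largest increases seen with uptake only were in Id1 and Id3, members of a family whose genes encode inhibitors of helix-loop-helix transcription factors and are direct targets of BMP signalling. Id1 stood at 8.25, 9.10, 9.56 and 7.02 CPM in control libraries and at 33.4, 30.5, 41.4 and 29.6 CPM with apoptotic cells. Under cytochalasin D it stood at 17.3, 14.4, 10.3 and 11.0 CPM, and with corpses added at 16.0, 15.6, 13.5 and 10.2 CPM. The first pair of groups was far apart and the second overlapped. Id1 rose 3.96-fold with corpses (log2 change 1.99 ± 0.16 SE, adjusted p = 1.8e-08) and had a log2 change of 0.07 ± 0.16 under block (adjusted p = 0.851). The difference was -1.92 (95% interval -2.38 to -1.45, adjusted p = 2.16e-05).

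Id3 followed the same pattern at a higher level. It went from 37.9, 46.1, 45.2 and 39.4 CPM in control libraries to 102, 106, 144 and 118 CPM with apoptotic cells. Under cytochalasin D it read 74.7, 62.1, 65.0 and 41.8 CPM alone and 66.8, 75.2, 51.7 and 39.5 CPM with corpses, groups that overlapped. The difference between its effects was -1.55 ± 0.22 (SE, adjusted p = 0.000273). Id2 rose 1.72-fold with uptake, from a mean of 14.4 to 24.6 CPM, and stood at 17.8 and 17.4 CPM in the blocked pair (difference -0.81, adjusted p = 0.000601). Cytochalasin D by itself raised all 3 genes, Id1 1.55-fold, Id3 1.44-fold and Id2 1.24-fold, to levels below those with corpses.

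Among 15 measured BMP and TGF-beta targets, 4 were called for the difference (26.7%, against 4.56% of all genes tested). All 4 were lower when blocked, as were 201 of the 598 genes called. This list and those below were chosen with earlier results of these data known, so their shares are descriptive. The median difference of the list was -0.17, against -0.02 over all genes. Besides the Id genes, Ltbp2, which binds fibrillin and is deposited in matrix, rose with uptake only, from 46.3 ± 1.81 to 72.5 ± 4.08 CPM, and stood at 43.4 ± 4.72 and 46.0 ± 1.35 CPM under block (SD, n = 4). Its difference was -0.56 (adjusted p = 0.00167). Between 4 and 5 members were called in each leave-out.

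Matrix genes formed a second group of increases that appeared with uptake. Of 24 measured extracellular matrix genes 6 were called (25%, against 4.56%), and 4 of the 6 rose with uptake only. Adamts1, a secreted protease that cleaves proteoglycans, read 117, 119, 122 and 118 CPM in control libraries and 180.4, 185, 190.3 and 181 CPM with apoptotic cells. In the blocked pair it read 81.9, 63.6, 66.0 and 68.3 CPM without corpses and 68.3, 66.4, 64.4 and 65.7 CPM with them. It rose 1.55-fold when uptake was possible, and had a log2 change of -0.08 ± 0.06 when it was not (difference -0.71 ± 0.08, adjusted p = 1.75e-05).

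Col6a1 and Col6a2, which encode partner chains of collagen VI, moved alike. Col6a1 rose 1.41-fold, from 447 ± 17.8 to 628 ± 23.8 CPM, and stood at 441 ± 20.4 and 429 ± 13.7 CPM in the blocked pair (difference -0.53, adjusted p = 8.55e-06). Col6a2 rose 1.36-fold, from 322 ± 15.5 to 439 ± 16.7 CPM, and stood at 336 ± 30.1 and 325 ± 14.6 CPM under block (difference -0.49, adjusted p = 0.000452). The other one, Mmp14, a membrane metalloprotease, was lost in some leave-outs. The other matrix members called, Thbs1 and Lamb1, moved the other way and are described with their classes.

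The remaining leading increases with uptake were a mixed set. Egr3, an immediate early zinc finger factor, stood at 5.91, 6.25, 7.88 and 6.84 CPM in control libraries and at 12.8, 10.4, 14.7 and 12.0 CPM with corpses. Under cytochalasin D its libraries overlapped, at 3.92 to 5.92 CPM without corpses and 3.18 to 5.77 CPM with them (difference -1.09, adjusted p = 0.0132). Ccr7, a chemokine receptor, rose from 3.02 to 5.71 CPM with uptake, and stood at 7.23 and 6.38 CPM in the blocked pair (difference -1.08, adjusted p = 0.0081). Irx5, a homeobox factor, rose from 10.6 to 21.4 CPM and stood at 22.6 and 24.9 CPM under block (difference -0.89, adjusted p = 0.0132). In Ccr7 and Irx5, cytochalasin D alone had raised the level by as much as corpses did or more, 2.37-fold and 2.13-fold. Without the 3 libraries that stood apart, the calls of Egr3 (adjusted p = 0.0954) and Irx5 (0.11) were lost.

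Smaller increases with uptake were seen in genes of different kinds, some of them abundant. Vim, the intermediate filament protein vimentin, rose 1.25-fold, from 4334 ± 191 to 5420 ± 202 CPM, and stood at 3278 ± 300.0 and 3247 ± 244 CPM under block (difference -0.34, adjusted p = 0.0138). Rrm2, a subunit of ribonucleotide reductase, rose 1.22-fold, from 254 to 309.6 CPM, with 149 and 151 CPM in the blocked pair (difference -0.27, adjusted p = 0.00746). Both calls were lost without the 3 libraries that stood apart (adjusted p = 0.0914 and 0.0748). Dusp4, a phosphatase of MAP kinases, rose 1.25-fold (difference -0.38, adjusted p = 0.00402), and Lima1, an actin-binding LIM protein, 1.16-fold (difference -0.34, adjusted p = 0.0138). Fth1, the ferritin heavy chain, rose 1.12-fold with a difference of -0.28 (adjusted p = 0.0139). It left the class without control 1, control 4, cytochalasin D 4 or apoptotic cells 3, and its call was lost without the 3 libraries (0.106) and once each library's trend with gene length was removed (0.0501). In Dusp4, Lima1 and Fth1 cytochalasin D alone raised the mean above that with corpses alone. These means were 114 and 81.1 CPM for Dusp4, 108 and 105 CPM for Lima1, and 1927 and 1848 CPM for Fth1. With both agents they were 110, 99.5 and 1768 CPM.

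Of the uptake-only genes 196 fell and 111 rose with uptake. Which direction held more genes depended on the settings: without cytochalasin D 4 the class held 330 lower and 358 higher genes, and at a minimum change of 1.5-fold 28 lower and 43 higher. The median change with corpses was -0.30 in the falling genes and 0.42 in the rising genes on the log2 scale, and 6 against 16 had a difference of at least 2-fold. The classes also differed in gene length. The median exon length was 3978 bases for the 196 genes that fell and 1862 for the 111 that rose, beside 2220 over all genes tested. Libraries with apoptotic cells alone had fewer counts on long genes. The fitted level at 8 kb minus that at 1 kb was -0.14 ± 0.03 on the log2 scale (SD, n = 4), against 0.06 ± 0.06 in control, 0.06 ± 0.09 with cytochalasin D and 0.02 ± 0.06 with both agents. The libraries with apoptotic cells alone did not overlap those of control (two-sided exact permutation p = 0.0286, the smallest possible, BH-adjusted p = 0.0571 over 12 tests). With each library's length trend removed, 144 of the 196 falling genes and 85 of the 111 rising genes kept their class.

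Ptprr, a tyrosine phosphatase that acts on MAP kinases, had the largest difference between effects among the uptake-only decreases named here. It read 7.52, 6.55, 8.03 and 8.02 CPM in control libraries and 3.81, 4.93, 4.36 and 3.48 CPM with apoptotic cells. Under cytochalasin D it read 9.51, 7.28, 7.99 and 7.78 CPM without corpses and 9.56, 10.4, 8.0 and 11.0 CPM with them, groups that overlapped. It fell 1.81-fold with uptake, with a difference of 1.11 ± 0.20 (SE, adjusted p = 0.00275).

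Slc25a36, a mitochondrial carrier of pyrimidine nucleotides, fell from 21.9 ± 2.26 to 12.8 ± 2.16 CPM and stood at 18.8 ± 1.59 and 19.4 ± 0.623 CPM under block (difference 0.83, adjusted p = 0.00288). Gmfb, an actin regulator of the cofilin family, fell from 85.0 to 62.0 CPM, and had means of 108 and 128 CPM in the blocked pair (difference 0.71, adjusted p = 0.00561). Tmem41b, a lipid scramblase of the endoplasmic reticulum, fell from 31.7 to 21.6 CPM, and had means of 25.5 and 31.2 CPM under block (difference 0.83, adjusted p = 0.0116). The call of Tmem41b was lost without the 3 libraries that stood apart (adjusted p = 0.0641). Txnrd1, the cytosolic thioredoxin reductase, fell 1.24-fold, from 798 ± 16.8 to 646 ± 5.88 CPM (difference 0.25, adjusted p = 0.00327).

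Amd1, which makes the aminopropyl donor for polyamines, fell in every library with corpses alone. It read 181, 163, 171 and 186 CPM in control libraries and 94.8, 101, 84.3 and 105 CPM with apoptotic cells. Under block it read 127, 136, 139 and 161 CPM without corpses and 113, 117, 123 and 131 CPM with them. The fall was 1.82-fold with uptake (adjusted p = 2.92e-08), and the log2 change under block was -0.22 (adjusted p = 0.0594), so that the difference was 0.65 ± 0.10 (adjusted p = 0.000566). The smaller fall under block was itself called without cytochalasin D 1 or apoptotic cells 3, with DESeq2, with no filter, with the length trend removed and without the 3 libraries, which moves Amd1 to the same-direction class. Of 13 measured polyamine genes 3 were called (23.1%, against 4.56%), namely Amd1, Atp13a3 and Mat2a, the last of them not in every leave-out.

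Several genes of sterol synthesis fell with corpses when uptake was possible, and 2 of them rose when it was blocked. Of 19 members examined 6 were called for the difference (31.6%, against 4.56% of all genes). All 6 were higher when blocked, relative to the effect without inhibitor, as were 397 of the 598 genes called. The list's median difference was 0.06, against -0.02 over all genes. Between 5 and 6 were called in each leave-out, 6 with the length trend removed and 5 without the 3 libraries that stood apart. Without inhibitor 7 members fell and none rose, where 6.68% of all genes fell and 6.97% rose, and the median change of the list was -0.13. Under cytochalasin D 2 members rose and 1 fell, where 4.82% of all genes rose and 3.79% fell, with a median of -0.0028.

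Idi1, which isomerises isopentenyl diphosphate, had the largest difference among them. It read 65.1, 56.6, 60.0 and 54.4 CPM in control libraries and 39.0, 50.4, 38.1 and 42.3 CPM with apoptotic cells. With cytochalasin D it read 27.7, 34.0, 32.7 and 36.9 CPM without corpses and 37.9, 45.4, 47.7 and 49.8 CPM with them. Neither pair overlapped, and the pairs moved in opposite directions. The log2 change was -0.48 ± 0.10 with uptake (adjusted p = 0.00164) and 0.45 ± 0.10 under block (0.00524), with a difference of 0.93 ± 0.14 (0.000338).

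Msmo1, a sterol methyl oxidase, showed the same reversal in its means, although its blocked pair overlapped. It fell from a mean of 73.7 to 53.8 CPM with uptake and rose from 48.9 to 61.0 CPM under block (difference 0.77, adjusted p = 0.000399). The rise of Msmo1 under block was not called without cytochalasin D 1, without cytochalasin D 2 or without library 3 or 4 of both agents.

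Hmgcs1, Insig1, Fdft1 and Sc5d fell with uptake only, and the last 3 were picked after their values were seen. Hmgcs1, which makes HMG-CoA, fell from 152 ± 11.5 to 114 ± 4.68 CPM and stood at 107 ± 2.71 and 115 ± 4.77 CPM in the blocked pair (difference 0.53, adjusted p = 0.000126). Insig1, which retains the sterol sensor in the endoplasmic reticulum, fell from 57.3 ± 4.25 to 40.3 ± 1.04 CPM and stood at 35.6 ± 3.07 and 35.4 ± 2.21 CPM under block. The call of Sc5d was lost in some leave-outs. With cytochalasin D alone the mean was below that of control in all 6. None of the 9 measured LXR targets and efflux genes was called by edgeR, DESeq2 or limma-voom, and 1 had an unadjusted p under 0.05.

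**Figure D3:**
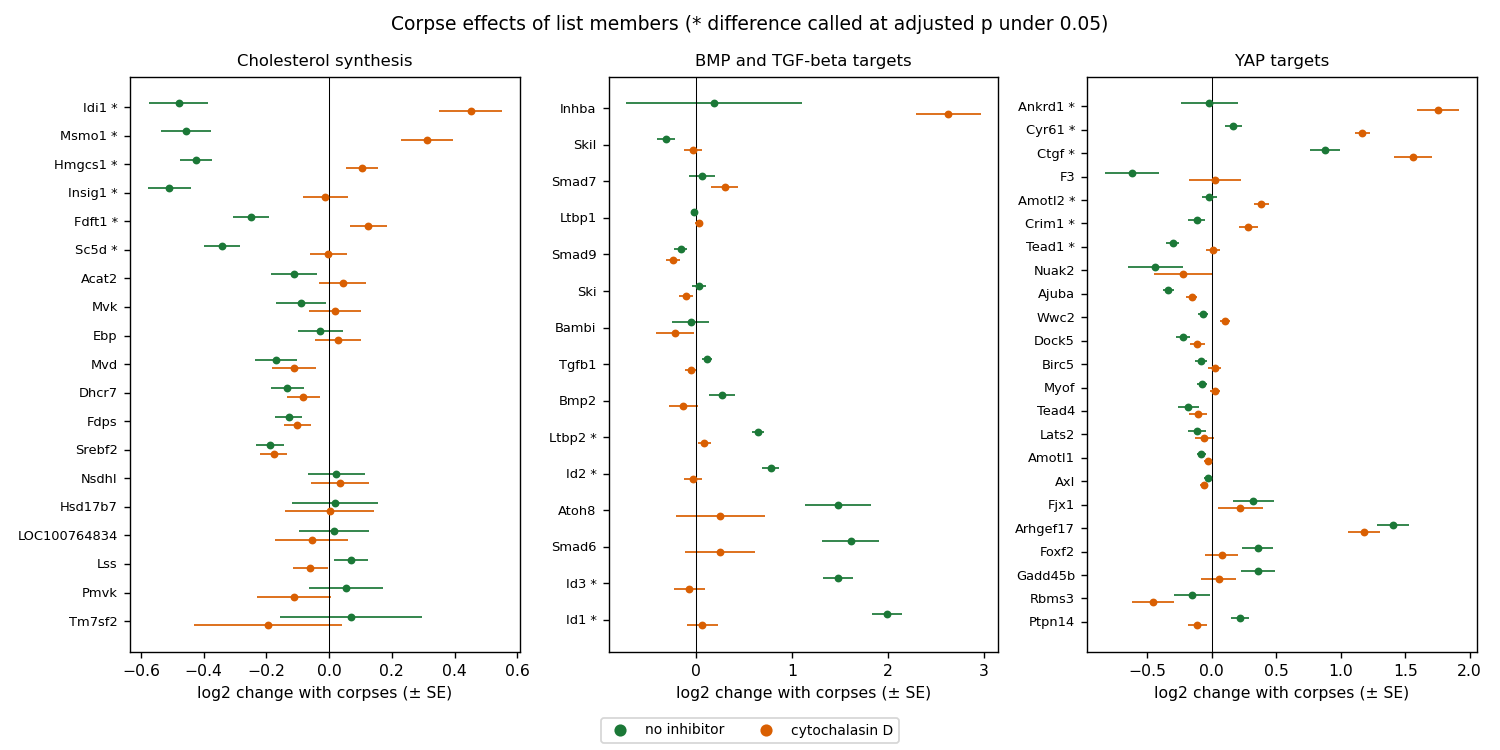
Points give the log2 change with corpses, with SE bars, without inhibitor (green) and under cytochalasin D (orange) for the members examined of 3 lists, ordered by the difference. Asterisks mark members with a called difference. In the left panel the 6 called sterol genes have the green point to the left of the orange one, and in the middle panel Id1, Id2 and Id3 have the green point to the right.

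Other genes that fell with uptake and rose under block belonged to different processes. Vgll3, a cofactor that binds TEAD transcription factors, read 137, 119, 124 and 130.0 CPM in control libraries and 101, 105, 90.7 and 95.4 CPM with apoptotic cells. Under block it read 115, 127, 130.0 and 157 CPM without corpses and 191, 199, 203 and 219.7 CPM with them. Its difference was 1.00 ± 0.10, the largest of the 33 (adjusted p = 3.43e-06). Atp13a3, a transporter linked to polyamine uptake, fell from 269.7 to 217 CPM and rose from 324 to 429 CPM (difference 0.72, adjusted p = 0.000117).

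Dcun1d1, a cullin neddylation factor, and Lamb1, a laminin chain, were less settled. Dcun1d1 fell from 32.1 to 22.7 CPM and rose from 23.2 to 30.2 CPM (difference 0.86, adjusted p = 0.00163), although its blocked pair overlapped. Its rise was not called without cytochalasin D 1 or 3 or without library 2 or 4 of both agents. Lamb1 fell from 289.7 to 264 CPM and rose from 282 to 308 CPM (difference 0.26, adjusted p = 0.00535). One of its effects was lost without control 2, cytochalasin D 3 or library 4 of both agents, and the difference was lost without the 3 libraries (adjusted p = 0.0626). The 39 opposite genes were long, with a median exon length of 4408 bases, and with the length trend removed 34 kept their class.

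The reverse pattern, a rise with uptake and a fall under block, was called for 6 genes. Ddit4, an inhibitor of mTORC1 induced by stress, read 22.2, 22.7, 28.9 and 21.3 CPM in control libraries and 29.9, 28.6, 36.4 and 29.6 CPM with apoptotic cells, which overlapped by 1 library. When uptake was blocked it read 25.7, 28.4, 26.5 and 23.5 CPM without corpses and 16.8, 19.8, 16.1 and 12.4 CPM with them, which did not. The log2 change was 0.39 with uptake (adjusted p = 0.0223) and -0.69 under block (0.000569), with a difference of -1.08 ± 0.16 (0.000452). Without control 1, 2 or 4, or apoptotic cells 3, the rise was not called and Ddit4 was blocked only. It was the 1 member called of 28 integrated stress and unfolded protein response genes (3.57%, against 4.56%).

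Pdk4 and Txnip, which restrain glucose use at pyruvate dehydrogenase and at uptake respectively, took the same course. Pdk4 read 27.8, 30.8, 23.9 and 27.1 CPM in control libraries and 33.9, 36.1, 33.0 and 32.3 CPM with corpses, and under block fell from a mean of 25.8 ± 1.09 to 17.98 ± 2.19 CPM. Its difference was -0.83 ± 0.12 (adjusted p = 0.00034), and its rise was not called without control 3 or apoptotic cells 2. Txnip rose from 82.0 ± 1.51 to 91.0 ± 3.11 CPM and fell from 82.9 ± 4.42 to 65.3 ± 2.50 CPM (difference -0.49, adjusted p = 0.000194). Col27a1, a fibrillar collagen, rose from 53.03 to 66.3 CPM and had means of 55.8 and 42.5 CPM under block (difference -0.72, adjusted p = 0.00537), where its libraries overlapped. Txnip and Col27a1 each kept the opposite class in only 8 of the 16 leave-outs. In the other 8 Txnip was blocked only, and Col27a1 was uptake only or blocked only.

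Txnip lost its rise without any 1 of the 4 control libraries, without apoptotic cells 1, 2 or 3, or without library 3 of both agents. Col27a1 left the class without control 1, 2 or 4, cytochalasin D 1 or 2, apoptotic cells 3 or 4, or library 4 of both agents. In both genes the difference between the effects stayed called in all 16.

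The largest increases under block only, among the named genes, were in Ankrd1 and Cyr61. Both were listed as targets of YAP, a transcriptional cofactor that responds to cell tension and adhesion. Of the 23 YAP list members tested, 4 were blocked only, where 1.18% of all genes tested were. Ankrd1, a nuclear ankyrin repeat protein, read 2.18, 2.18, 2.12 and 1.35 CPM in control libraries and 1.24, 1.86, 2.50 and 2.15 CPM with apoptotic cells. With uptake blocked, it read 5.60, 5.07, 4.81 and 4.42 CPM without corpses and 17.4, 13.4, 16.1 and 19.8 CPM with them. The groups overlapped without inhibitor, and under block corpses raised it 3.38-fold (difference 1.77 ± 0.27, adjusted p = 0.000511).

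Cyr61, a secreted matrix-associated protein, was more abundant. It read 50.1, 50.1, 55.7 and 50.6 CPM in control libraries and 56.6, 52.5, 60.7 and 61.5 CPM with apoptotic cells. Under block it read 136, 129, 134 and 135 CPM without corpses and 341, 291, 274 and 295 CPM with them (difference 1.00 ± 0.09, adjusted p = 4.73e-07). Its small change without inhibitor, 0.17 on the log2 scale (adjusted p = 0.0892), was called without apoptotic cells 2 or without library 1 of both agents, which moves Cyr61 to the same-direction class. Amotl2, which binds YAP at junctions, stood at 209.7 ± 10.2 and 207 ± 17.1 CPM without inhibitor and rose from 116 ± 5.80 to 151 ± 11.9 CPM under block (difference 0.40, adjusted p = 0.00892).

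Of 23 measured YAP targets 6 were called (26.1%, against 4.56%), with a median difference of 0.11 over the list. All 6 were higher when blocked, as were 397 of the 598 genes called. Besides Ankrd1, Cyr61 and Amotl2, the members called were Crim1, Ctgf and Tead1, which were picked out after their values were seen. Tead1, the DNA-binding partner of YAP, differed in kind: it fell with uptake, from 83.8 to 67.9 CPM, and stood at 79.2 and 80.0 CPM under block. Ctgf rose in both settings, from 20.2 to 37.3 CPM without inhibitor and from 6.37 to 18.7 CPM under block. The calls of Crim1 and Ctgf were lost in some leave-outs, and 4 to 8 members were called in each. Cytochalasin D alone raised Ankrd1 2.48-fold and Cyr61 2.59-fold, while Amotl2 and Ctgf had lower means with it, so the starting level of the blocked pair was not shifted one way across the list. Among 28 measured targets of MRTF and serum response factor, which sense free actin, 4 were called (14.3%), 2 in each direction. Pdlim5 and Lima1 were called in every leave-out, Fhl2 and Filip1l were not.

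Further genes rose under block only. Hbegf, a ligand of the EGF receptor, had means of 10.1 ± 1.09 and 8.22 ± 1.52 CPM without inhibitor and rose from 7.69 ± 0.849 to 12.3 ± 1.76 CPM under block (difference 0.98, adjusted p = 0.00656). Rnf138, a ubiquitin ligase, rose from 7.23 to 12.2 CPM (difference 0.97, adjusted p = 0.0128), a call lost without the 3 libraries that stood apart (0.0935). Pdlim5, which sits on actin filaments, stood at 66.8 and 64.0 CPM without inhibitor and rose from 335 to 470.4 CPM under block (difference 0.56, adjusted p = 0.000221). Fst, the activin-binding protein follistatin, rose from 14.4 to 20.7 CPM under block and had means of 28.5 and 23.8 CPM without inhibitor (difference 0.77, adjusted p = 0.00162). Its fall without inhibitor missed the threshold (adjusted p = 0.0633). That fall was called without control 2, with DESeq2 and with the length trend removed, which moves Fst to the opposite class.

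Genes that fell with corpses only under block included a Hedgehog effector and neutrophil-attracting chemokines. Gli1, the transcription factor induced by Hedgehog signalling, read 12.7, 13.5, 12.1 and 10.9 CPM in control libraries and 14.5, 15.6, 11.7 and 16.6 CPM with apoptotic cells, which overlapped. In cells under block it read 7.75, 10.7, 7.0 and 5.98 CPM without corpses and 3.96, 5.03, 3.72 and 3.86 CPM with them, which did not. It fell 1.92-fold under block (difference -1.18 ± 0.23, adjusted p = 0.00435).

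Cxcl3 read 26.6, 29.4, 27.3 and 23.3 CPM in control libraries and 29.3, 25.6, 26.7 and 27.7 CPM with apoptotic cells. In cytochalasin D its levels were 27.1, 22.6, 21.8 and 22.5 CPM without corpses and 11.7, 15.0, 15.4 and 12.2 CPM with them. The groups overlapped without inhibitor and stood apart under block, where the fall was 1.74-fold (difference -0.83 ± 0.14, adjusted p = 0.00145). Cxcl1 had means of 17 and 16.6 CPM without inhibitor and fell from 17.97 to 9.73 CPM under block (difference -0.88, adjusted p = 0.0122), a call lost without the 3 libraries that stood apart (0.0795). Of 15 measured inflammation genes 3 were called (20%, against 4.56%), the third being Cxcl12, which was lost in some leave-outs.

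Among 13 measured NF-kappaB feedback genes 3 were called (23.1%, against 4.56%), in different directions. Traf1, an adaptor of TNF receptors, fell from 15.5 to 8.61 CPM under block and stood at 10.6 and 10.4 CPM without inhibitor (difference -0.83, adjusted p = 0.011). Tnip1, a partner of A20, fell from 166 ± 4.31 to 141 ± 1.55 CPM under block (difference -0.34, adjusted p = 0.00163), and without control 2 its rise without inhibitor was also called. Tnfaip3, which encodes A20 itself, rose more under block, from 133 to 211 CPM, than without inhibitor, where its means were 64.7 and 72.4 CPM (difference 0.49, adjusted p = 0.000487). The smaller rise had an adjusted p of 0.049 and was called in only 5 of the 16 leave-outs, those of control 3, cytochalasin D 1 and 4, and libraries 1 and 2 of both agents. In the others Tnfaip3 was blocked only. Over the list, 2 members rose and 2 fell without inhibitor, where 6.97% and 6.68% of all genes tested did, and 1 rose and 8 fell under block, where 4.82% and 3.79% did.

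Bcl9l, a cofactor of beta-catenin, fell from 151 ± 15.3 to 106 ± 5.77 CPM under block and stood at 226 ± 10.3 and 248 ± 9.62 CPM without inhibitor (difference -0.64, adjusted p = 6.92e-05). S100a4, a calcium-binding protein, fell from 102 to 85.8 CPM under block (difference -0.30, adjusted p = 0.0105). Its call was lost without the 3 libraries (adjusted p = 0.119) and with the length trend removed (0.0599).

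In 16 genes both effects were called with 1 sign, 14 of them upward. Thbs1, the matrix glycoprotein thrombospondin-1, had the largest difference of those larger under block. It read 271, 301, 277 and 298 CPM in control libraries and 360.0, 364, 369.8 and 357 CPM with apoptotic cells. Under block it read 275, 264, 265 and 291 CPM without corpses and 1036, 882, 953 and 1039 CPM with them. The rise was 1.27-fold with uptake and 3.57-fold under block, from similar starting levels (difference 1.497 ± 0.07, adjusted p = 1.69e-12).

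Nppb, the precursor of B-type natriuretic peptide, read 12.5, 10.7, 9.47 and 10.3 CPM with cytochalasin D and 30.7, 27.0, 28.0 and 26.5 CPM with corpses added. Without inhibitor it had means of 10.5 and 13.8 CPM in groups that overlapped (difference 1.00, adjusted p = 0.00163). That smaller rise was not called without control 3 or 4, apoptotic cells 1, 2 or 3, or library 3 of both agents, nor with limma-voom or the length trend removed. Errfi1, an inhibitor of the EGF receptor, rose 1.11-fold with uptake and 1.63-fold under block (difference 0.55, adjusted p = 2.56e-05). Dusp5, an ERK phosphatase, rose 1.16-fold and 1.45-fold (difference 0.33, adjusted p = 0.0222). The smaller rise was not called for Errfi1 without control 2 or 4 or apoptotic cells 3 or 4, nor for Dusp5 without control 1 or 2. The difference of Dusp5 was lost without the 3 libraries (adjusted p = 0.0988).

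Errfi1, Dusp5, Dusp4 and Hbegf belong to a list of MAPK feedback genes and EGF receptor ligands. Of its 17 measured members 5 were called (29.4%, against 4.56%), 3 higher and 2 lower when blocked, with a median difference of 0.20. The fifth was Areg, an EGF receptor ligand whose call was lost in some leave-outs.

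In 3 named genes the rise, taken on the log2 scale, was larger when uptake was possible. Sgk1, a kinase that regulates ion channels and transporters, read 15.7, 20.7, 17.3 and 17.3 CPM in control libraries and 51.6, 49.3, 46.8 and 45.7 CPM with apoptotic cells. The blocked pair read 75.6, 81.5, 74.0 and 76.2 CPM without corpses and 97.6, 108, 102 and 105 CPM with them. It rose 2.73-fold with uptake and 1.34-fold under block (difference -1.02 ± 0.10, adjusted p = 1.26e-06), and cytochalasin D alone had already raised its level above that with corpses.

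Slc14a1, a urea transporter, read 7.52, 7.88, 8.32 and 7.20 CPM in control libraries and 18.6, 18.4, 19.4 and 18.4 CPM with apoptotic cells. Under block it rose from 4.68 ± 0.206 to 7.10 ± 0.869 CPM, 1.499-fold against 2.42-fold (difference -0.69, adjusted p = 0.0139), a difference not called without the 3 libraries that stood apart (0.0724). Ankh, which exports ATP and pyrophosphate, rose 1.74-fold with uptake, from 149 ± 8.01 to 260.0 ± 2.84 CPM, and 1.28-fold under block, from 142 ± 2.11 to 182 ± 1.72 CPM (difference -0.44, adjusted p = 4.04e-05). Slc14a1 and Ankh, unlike Sgk1, started at or below the control level when uptake was blocked.

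**Figure D4:**
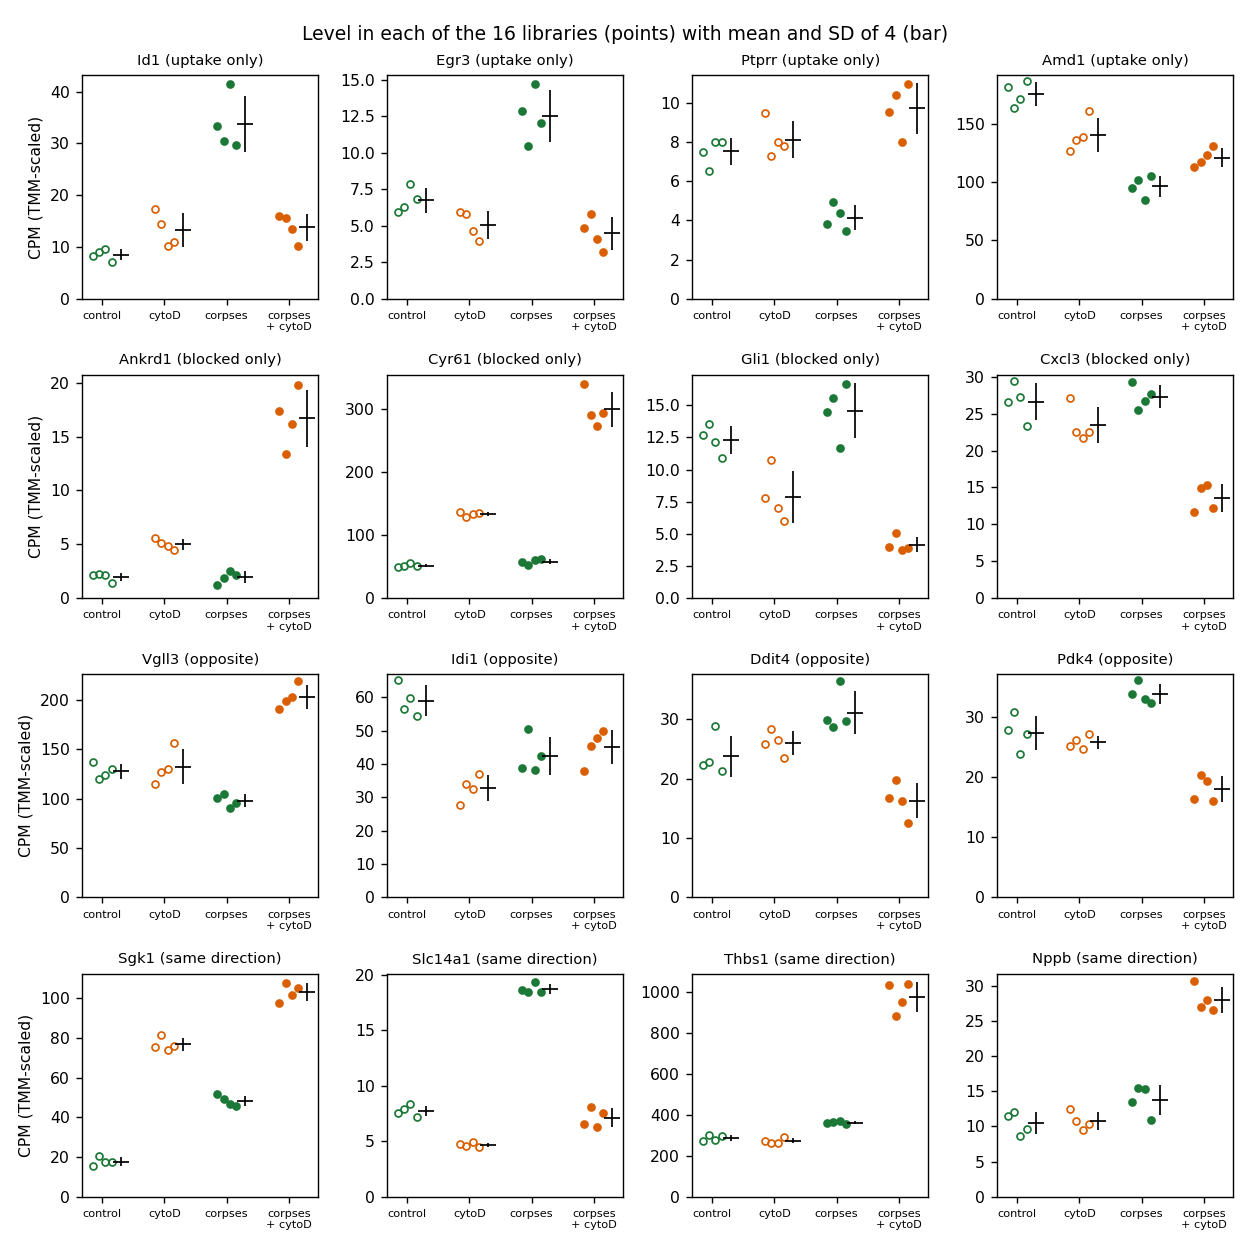
Points are TMM-scaled CPM in each of the 16 libraries for 16 genes, 4 from each class, with open points for groups without corpses and the mean and SD of 4 libraries beside them. Each axis starts at 0. Id1 is high in the group with corpses alone, Ankrd1 in the group with both agents, and Idi1 falls between the first pair of open and filled green points and rises between the orange ones.

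Genes of chloride sensing were given whatever their call, since the series also removes Slc12a2. Slc12a2, the sodium, potassium and chloride cotransporter, read 53.02, 48.8, 44.9 and 52.2 CPM in control libraries and 45.5, 51.9, 43.7 and 48.5 CPM with apoptotic cells. With the inhibitor it read 22.9, 33.9, 31.0 and 36.2 CPM without corpses and 36.1, 42.0, 37.2 and 42.4 CPM with them. Both pairs overlapped, the blocked pair only narrowly. The corpse effect under cytochalasin D was called by itself (log2 change 0.33, adjusted p = 0.045). That without inhibitor was not (-0.07, adjusted p = 0.686). Cytochalasin D alone lowered Slc12a2 1.60-fold (adjusted p = 1.5e-05). The difference was 0.40 (95% interval 0.11 to 0.70) and was not called (adjusted p = 0.098). Besides a fit with the replicate number as a block, it was called with DESeq2 (0.049), with no filter (0.0418) and without cytochalasin D 4 (0.0253).

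The kinases that activate this transporter changed little. Oxsr1 fell 1.16-fold with uptake, from 442 ± 19.7 to 382 ± 6.36 CPM, and stood at 378 ± 23.5 and 379 ± 15.5 CPM under block. Its difference of 0.22 had an adjusted p of 0.044 and was lost in 11 of the 16 leave-outs, with the length trend removed (0.0759) and without the 3 libraries (0.309). Stk39 had a difference of -0.09 (95% interval -0.23 to 0.06, adjusted p = 0.498). Over 23 measured chloride and volume genes 3 were called (13%, against 4.56%), the others being Sgk1 and Clic1. Slc2a1, the glucose transporter GLUT1, rose 1.29-fold with uptake and 1.36-fold under block, and the difference of 0.08 was not called (95% interval -0.08 to 0.24, adjusted p = 0.596).

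Other processes linked to corpse handling are given by their counts, beside the 4.56% over all genes tested. Among 26 measured genes of apoptotic cell uptake 2 were called (7.69%), Cd47 and Tyro3, and among 32 lysosome genes 2 (6.25%), Cd63 and Ctsz, and none of the 4 was called in every leave-out. Of 42 cell cycle genes 2 were called (4.76%), of 24 genes of glycolysis 2 (8.33%), of 20 oxidative stress genes 2 (10%), of 17 p53 targets 1 (5.88%) and of 16 hypoxia genes 1 (6.25%). Of 18 measured members of a list named for restraint of inflammation 5 were called (27.8%), 2 higher and 3 lower when blocked. Sgk1, Thbs1 and Tnfaip3 held in every leave-out. Sgk1 is also counted above among the chloride and volume genes, Thbs1 among the matrix genes and Tnfaip3 among the NF-kappaB feedback genes. None of 14 interferon response genes was called by edgeR or limma-voom, where 1 had an unadjusted p under 0.05 and DESeq2 called 1. None of 17 heat shock genes was called by edgeR or limma-voom, where 4 had an unadjusted p under 0.05 and DESeq2 called 1. Immediate early genes, at 5 of 33 (15.2%), rested on few libraries. Of these 5 only Egr3 was called in every leave-out, between 1 and 11 were called in single leave-outs, and none without the 3 libraries that stood apart.

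At the edge of the threshold, Bak1 was just inside with a difference of -0.23 (adjusted p = 0.0499), and Pik3r3 just outside with -0.48 (adjusted p = 0.0501).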

How the data were processed

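RNA was measured in 24 LR73 libraries, of which the 16 of the cytochalasin D experiment were used. The other 8 belong to the Slc12a2 experiment and were not analysed here. Per the labels' protocols, total RNA went into TruSeq libraries read as 75 bp pairs. The values are raw counts per gene name, deposited by the authors and made, per the file headers, by running featureCounts 1.5.0 on STAR output: read pairs with both ends aligned, summed over exons, with no strand option named. Overlapping and antisense genes therefore cannot be separated. Per the submitters' processing notes, FastQC, STAR, featureCounts and DESeq2 were used. No source used here names the genome build. The exon length in the deposited table, in bases, served for the length checks. Of 26776 gene names, 11415 are identifiers without a symbol. A row with a blank name (at most 0.0445% of counts) was left out. Some items are not reported here.

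Counts were fitted with edgeR 4.0.16 in R 4.3.3 (TMM, filterByExpr with minimum count 10 and minimum total 15, 1 mean per group, quasi-likelihood F test, all 16 libraries in 1 fit). The biological coefficient of variation was 7.04%. Standard errors and 95% intervals are Wald values from the fitted weights. Permutation tests are exact and two-sided over 70 assignments. P values measure the spread between these libraries. The labels do not say what a replicate number shares and not every same-numbered pair of libraries correlated above 0.1, so the fit has no block.

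Named genes carried a symbol, averaged at least 4 CPM (1 CPM for list members) with at least 1 CPM in both corpse-free groups, and were called in all 16 leave-outs. The largest differences were taken, up to 5 per direction of each "only" class, 4 per sign of the opposite class, 3 per kind of the same-direction class and 3 per list and direction. Slc12a2, Oxsr1, Stk39, Sgk1, Thbs1 and Slc2a1 were always given. Other list members are named after their values were seen. The class and its genes, the 27 lists and the rule were chosen with earlier results of these data known.

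Alternatives were DESeq2 1.42.0, limma-voom 3.58.1, relative log expression factors, other filters, stricter thresholds, robust dispersions, a replicate block, leaving out each library in turn, removal of each library's length trend and removal of genes near 0 without corpses. Leaving out 3 libraries together was chosen after seeing the data. On simulated counts for the difference, with 12941 genes, 52.2%, 82.1% and 98.5% of genes changed 1.5-, 2- and 4-fold were recovered, with 8 false calls among 163.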

Additional observations from a re-analysis of the deposited data

Results flagged for a closer look

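The corpse effect differed with and without cytochalasin D for 598 genes by the test of the difference itself (edgeR, adjusted p under 0.05). In 10 named genes the effects were called in opposite directions. The difference, blocked minus unblocked on the log2 scale, was 1.00 for Vgll3, 0.93 for Idi1, 0.86 for Dcun1d1, 0.77 for Msmo1, 0.72 for Atp13a3 and 0.26 for Lamb1. It was -1.08 for Ddit4, -0.83 for Pdk4, -0.72 for Col27a1 and -0.49 for Txnip.

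Single libraries stood far from the other 3 of their group, by Dixon's ratio, in 12 of 256 sets of 4 values examined. Chance flags about 1 in 20 sets. In cytochalasin D 1, Amotl2 read 124 CPM, Cxcl3 27.1 CPM and S100a4 109 CPM, each above the others. In apoptotic cells 3, Col27a1 read 72.4 CPM and Ddit4 36.4 CPM, above the others, and the summed myeloid markers took 1.504 ppm of counts, below them. In control libraries, Ankh read 161 CPM in library 1 and Cyr61 55.7 CPM in library 3, both high, and Ankrd1 1.35 CPM in library 4, which was low. Dusp5 read 66.1 CPM in cytochalasin D 4, below the others. With both agents, Lima1 read 92.1 CPM in the first library and Txnip 61.6 CPM in the fourth, both low.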

How the results depend on the processing

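Of the 598 differences, calls shared with each alternative kept their sign. DESeq2 gave 975 (580 shared), no filter 928, the stricter threshold of 0.01 gave 132, a minimum of 1.5-fold gave 134, and leaving out the 3 libraries that stood apart, chosen after seeing the data, 120. Uptake-only genes then numbered 493 with no filter, 62 at 0.01, 71 at 1.5-fold and 66 without the 3 libraries. Blocked-only genes numbered 283 with DESeq2, 234 with no filter, 40 at 0.01, 29 at 1.5-fold and 31 without the 3. Opposite genes numbered 12, 18 and 14 under the last 3 settings. Same-direction genes numbered 28 with DESeq2, and 4, 7 and 7 under those 3. The corpse effect without inhibitor had 785 calls at 0.01 beside 1789. Under cytochalasin D it had 532 at 0.01 and 662 without the 3 libraries, beside 1129. Limma-voom (525), relative log expression factors (610), a robust fit (598), the length trend removed (548) and genes near 0 removed (591) stayed within 1.5 times. The smaller counts at 0.01 and 1.5-fold follow from the stricter thresholds. For the rest the cause was not tested.

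With single libraries left out, differences ranged from 251 to 1645, uptake-only genes from 114 to 688, blocked-only from 66 to 533, opposite from 21 to 95, same-direction from 8 to 26, effects without inhibitor from 1103 to 2087 and effects under cytochalasin D from 756 to 1639. Adding the replicate block gave 753 differences, 577 shared. Deviations of same-numbered libraries of different groups had a median correlation of 0.0066 over 24 pairs, 6 above 0.1. Between the 2 cytochalasin D groups it was 0.508, 0.068, 0.103 and 0.498 for numbers 1 to 4. Of the 16 libraries 6 correlated best with their own number. The block changed the call of 1 named gene, Slc12a2 (adjusted p = 0.0485). The T cell marker share, most of it Tcf7 and Lat, was -1.04 ppm blocked minus unblocked, and 0.15 with TMM scaling (exact permutation p = 0.943). At this depth, number of libraries and spread per gene, 52.2% of simulated 1.5-fold differences were recovered. The simulation held no deviations of whole libraries and changed only genes above a minimum mean count. The promoter search listed among the planned descriptions was not run.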
